A study of Mus musculus with 21 samples.

Results

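DNA replication and S-phase genes were described as a module of 40 genes listed by symbol: the licensing factors, helicase, polymerases, clamp, clamp loader and nucleotide enzymes that copy the genome. The list was set by gene name and not by any measured value, and a probe set belonged to it where the platform annotation gave it that symbol alone. Probe sets were found for 39 of the 40 genes. They numbered 86 of the 45101 probe sets on the array, 30 genes had more than 1, and Mcm3 had the most, 5. Chaf1a was not analysed here. Each gene was represented by its brightest probe set, and all 39 lay above the filter on dim probe sets on all 21 arrays. That filter is a rank within each array and not a test of detection, and Tyms lay close to it in wild-type marrow.

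Replication starts at origins, where the origin recognition complex with CDC6 and CDT1 loads the MCM helicase in G1. CDC45 and the GINS complex switch that helicase on in S phase. DNA polymerase alpha and its primase lay down primers, the RFC complex loads the sliding clamp PCNA, polymerase epsilon extends the leading strand, and FEN1 and LIG1 join the fragments of the lagging strand. Ribonucleotide reductase, thymidylate synthase and thymidine kinase supply the deoxynucleotides, and the CAF-1 complex and UHRF1 restore histones and DNA methylation behind the fork. In the bone marrow, large pre-B cells divide in response to the pre-B cell receptor and interleukin 7, then leave the cycle as small pre-B cells before the light chain genes are rearranged.

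Expression was measured on 21 whole-genome Affymetrix mouse arrays, in 7 groups of 3. Of these, 4 were sorted B220-positive cells of the bone marrow, from wild-type mice, from mice with a Cebpb LAP transgene, from Blnk KO mice and from Blnk KO mice that also carried the LAP transgene. LAP is an activating form of C/EBPβ, a transcription factor, while BLNK is an adaptor protein that carries signals from the pre-B cell receptor. The other 3 groups were LB31, a leukaemia line (pre-B acute lymphoblastic) that arose in a Blnk KO mouse, transduced with pMY, a retroviral vector, either empty, with Blnk cDNA, or with YF, a loss-of-function mutant of Blnk. All LB31 cells, the empty-vector controls included, were grown with interleukin 7 at 5 ng/ml and share the Blnk KO label of their donor mouse. LB31 is 1 line, so its groups say nothing of other leukaemias. The sources used here do not give the ages of the mice, the promoter that drives LAP, or whether replicates came from separate animals or cultures. The p-values therefore cover the spread between these arrays alone, and that spread may be technical.

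Over all probe sets, r between replicate arrays lay from 0.963 to 0.980 (21 pairs). The Blnk probe set did not follow the labels: the difference of knockout-labelled marrow from wild-type was -0.07 ± 0.11 (log2, SE, adjusted p = 0.761), and BLNK-labelled LB31 was lower than empty-vector LB31 by -1.15 ± 0.06 (adjusted p = 2.34e-08). Where it lies relative to the deleted part and to the introduced cDNA is not given, so it checks neither, and the groups are called knockout-labelled, LAP knockout-labelled, BLNK-labelled and YF-labelled. Of 7 measured defining B-lineage genes, 0 were below the filter on all arrays of any group, but their levels were not even. Their summed linear normalized signal ran from 22937 to 24199 in wild-type marrow and from 20010 to 23716 with LAP. It ran from 17927 to 23040 in knockout-labelled marrow, 18444 to 19303 in LAP knockout-labelled marrow and 11976 to 12768 in empty-vector LB31. The ratio of 3′ to 5′ Gapdh signal, a sign of RNA quality, had group means between 0.786 (wild-type) and 0.969 (LAP transgenic) in marrow and between 0.711 and 0.740 in LB31. Its part in the results was not tested.

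Promoters of replication genes are known for binding sites of E2F factors, which are released from RB proteins as cells enter S phase. The RefSeq promoter windows of assembly GRCm38.p6 held 38 windows for 33 of the 40 genes. The E2F-type letters TTTCCCGC, TTTGGCGC, TTTCGCGC and TTTGCCGC were searched on both strands of the 250 bases before the annotated start, with overlapping matches kept. They were present in 9 of the 38 windows (23.68%), of Cdc6, Gins3, Mcm5, Mcm6, Mcm7, Orc1, Pola1, Rfc3 and Uhrf1, against 1.86% of all 32851 windows. The letters CCAAT, the box bound by NF-Y, were present in 24 of the 38 windows (63.16%) against 33.85% of all. A match is a description of the letters and not of binding. The next 4 stretches, 120 bases each and read 5′ to 3′ on the strand of the gene, are shown because they hold such letters in 2 helicase genes that were called in marrow (Mcm5, Mcm6) and in 2 genes that were not (Gins3, Rfc3). Capitals mark the E2F-type letters on either strand, and matches that overlap run together.
Mcm5, chr8:75109309-75109428, plus strand: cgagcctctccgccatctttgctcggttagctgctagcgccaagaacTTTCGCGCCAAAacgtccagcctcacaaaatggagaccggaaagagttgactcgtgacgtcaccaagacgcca
Mcm6, chr1:128359716-128359835, minus strand: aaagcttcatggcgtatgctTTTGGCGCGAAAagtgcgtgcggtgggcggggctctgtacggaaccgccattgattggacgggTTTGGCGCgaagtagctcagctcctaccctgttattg
Gins3, chr8:95633439-95633558, plus strand: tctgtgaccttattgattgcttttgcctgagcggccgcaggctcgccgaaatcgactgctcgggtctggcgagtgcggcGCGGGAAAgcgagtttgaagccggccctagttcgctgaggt
Rfc3, chr5:151651209-151651328, minus strand: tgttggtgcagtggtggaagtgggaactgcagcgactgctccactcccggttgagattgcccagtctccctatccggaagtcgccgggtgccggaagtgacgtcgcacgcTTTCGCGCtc

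In marrow, the comparison with wild-type that called the most replication genes was that of cells with both labels. LAP knockout-labelled cells had 16 of 39 genes higher than wild-type and 1 lower, where 16.5% of all 13347 genes tested were called higher and 14.7% lower (31.2% in all). The 16 were led by Tyms, thymidylate synthase (2.83-fold), the helicase subunit Mcm3 (1.91-fold) and the primase subunit Prim2 (1.71-fold), and the gene that fell was the licensing factor Cdt1. Knockout-labelled cells had 7 higher and 1 lower than wild-type, against 8.37% and 8.69% (17.1% in all) of all genes, with the same enzyme Tyms at the top and Cdt1 again the gene that fell. LAP transgenic cells had 2 higher, Mcm3 and Rfc2, and 0 lower, against 2.1% and 1.87% (3.97% in all). A call is an adjusted p under 0.05 from limma over all genes of the fit. The median log2 change of the 39 genes was 0.30 with both labels, 0.11 with the knockout label and 0.18 with LAP, beside 0.04, 0.01 and 0.00 over all genes. These comparisons share the wild-type arrays, so their values stand side by side and are not independent. In sorted cells measured in bulk, a change in the share of dividing cells and a change in RNA per dividing cell cannot be told apart.

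**Figure D1:**
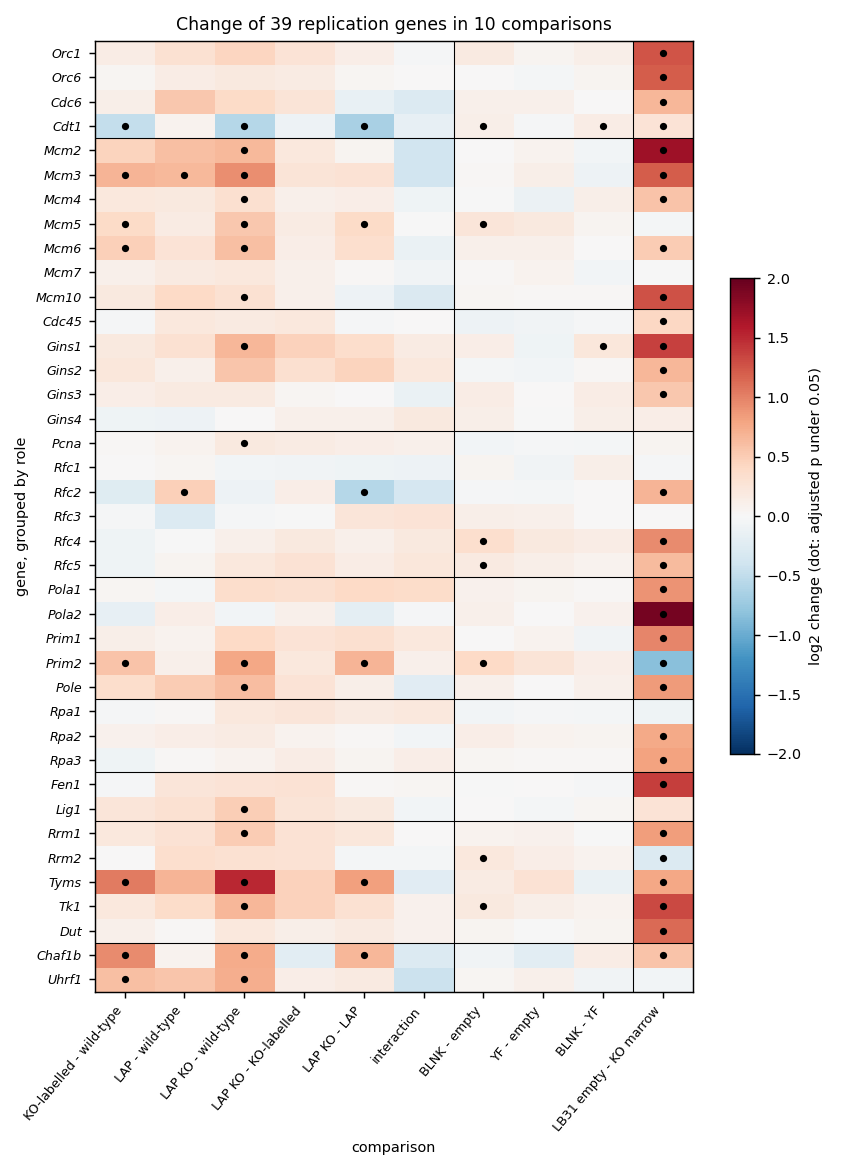
Log2 change of each of the 39 genes (rows, grouped by role from licensing at the top to chromatin at the bottom) in 10 comparisons (columns), with a dot where limma's adjusted p was under 0.05. The column of LAP knockout-labelled against wild-type marrow holds 17 dots, that of LAP knockout-labelled against knockout-labelled marrow 0, and that of empty-vector LB31 against knockout-labelled marrow 30.

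These counts moved with the scale between arrays and with single arrays. On the values as deposited, where the median of all genes moved to 0.30 for the knockout label, -0.08 for LAP and 0.36 for both, the calls were 11 higher and 0 lower, 0 and 0, and 29 and 0, relative to that shift. All genes called higher were then 24.1%, 0.764% and 35.4%. With each array centred on its median the calls of members were 3 and 2, 0 and 0, and 9 and 1, beside 5.78%, 1.49% and 12.1% of all genes called higher. Prim2, Chaf1b and Tyms were called higher under both in knockout-labelled cells, and 9 of the 16 were with both labels: Mcm2, Mcm3, Mcm5, Mcm6, Gins1, Prim2, Tyms, Chaf1b and Uhrf1. The same 9 stayed called whichever array was left out, as did Mcm3, Prim2, Chaf1b and Tyms with the knockout label. The count of 7 became 4 when wild-type array 2 or knockout-labelled array 3 was left out. The count of 16 became 10 without wild-type array 1 or 2 or LAP knockout-labelled array 1, and 9 without LAP knockout-labelled array 2. The count of 2 in LAP cells became 1 without wild-type array 2 or LAP arrays 2 or 3, and 0 without wild-type arrays 1 or 3.

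Array by array, most of the 39 genes deviated together on several arrays. The mean deviation of the 39 genes from their own marrow means was -0.16, -0.27 and -0.12 (log2) on the wild-type arrays, -0.01, 0.08 and 0.02 on the LAP transgenic arrays, and 0.20, 0.24 and 0.07 on the LAP knockout-labelled arrays. On the knockout-labelled arrays it was -0.04, -0.25 and 0.24. Array 3 of that group had 37 of 39 genes above their own mean and array 2 had 3, so 1 array lay level with the LAP knockout-labelled group and another level with wild-type. No such spread was seen in the other marrow groups, whose SD over arrays was 0.05 with LAP and at most 0.09 against 0.25. Summed levels of other lineages differed between the same 3 knockout-labelled arrays: 10 erythroid genes summed to 3316, 5801 and 9368 (linear normalized signal), with Hba-a1 below the filter on every marrow array, and 7 megakaryocyte genes to 2794, 3092 and 6025. The 11 neutrophil genes summed to 16193, 33873 and 35634. On the LAP arrays, array 3 had the highest sums. Erythroid genes summed to 7855, 4334 and 18595 and neutrophil genes to 30402, 21898 and 63938, a wider spread than on the knockout-labelled arrays. Megakaryocyte genes summed to 3834, 3204 and 5666, a narrower spread. The 9 monocyte and macrophage genes summed to 5879, 4452 and 13783, against 2861, 6128 and 6089 on the knockout-labelled arrays. The 0.05 given above for the LAP arrays is the SD of a mean over 39 genes, in which opposite moves cancel. Single genes spread more there: Tk1 had an SD of 0.47, with array 3 highest, and Rfc3 0.40, with array 3 lowest. The part of these cells in the changes with LAP or the knockout label was not tested.

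**Figure D2:**
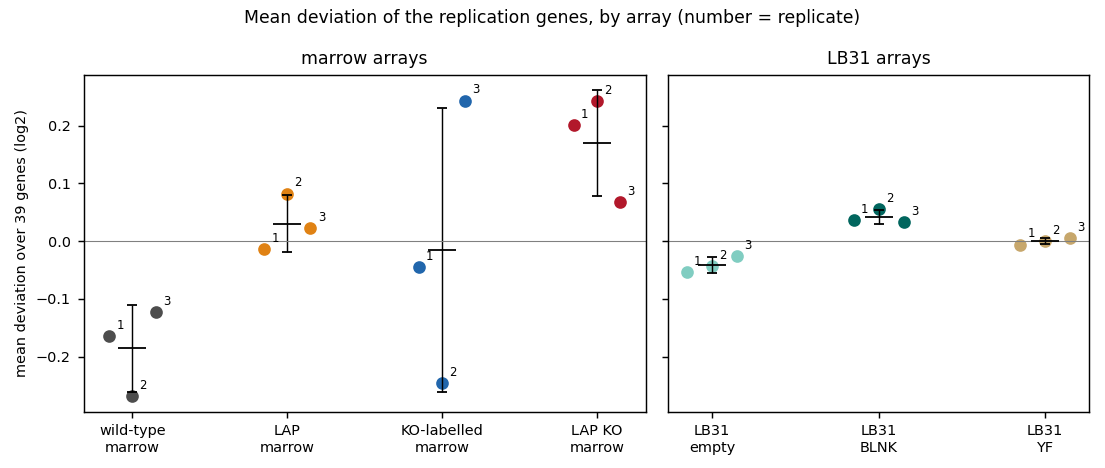
Mean deviation of the 39 replication genes from their own means (log2, vertical axis) on each array (points, numbered by replicate), with the mean and SD of each group of 3, for marrow arrays on the left and LB31 arrays on the right, each normalized on its own. Knockout-labelled marrow spans -0.25 to 0.24, which covers the range of the other marrow groups except wild-type array 2, while the LB31 groups lie between -0.05 and 0.06.

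Origin licensing split by gene. Cdt1, which brings the MCM helicase to origins and is destroyed as S phase begins, had log2 signals of 11.02, 11.08 and 10.98 on the wild-type arrays and 11.11, 10.999 and 11.20 on the LAP arrays. Knockout-labelled arrays read 10.50, 10.39 and 10.78, and LAP knockout-labelled arrays 10.65, 10.44 and 10.29. Every array with a knockout label lay below every array without it. Cdt1 fell by 0.47 ± 0.11 (SE, n = 3 per group, adjusted p = 0.00848) with the knockout label and by 0.57 ± 0.11 (adjusted p = 0.00135) with both, and its other tested probe set also fell, by 0.45 ± 0.12 (adjusted p = 0.025) and 0.47 ± 0.12 (adjusted p = 0.0112). On the values as deposited the changes were -0.22 (adjusted p = 0.248) and -0.29 (adjusted p = 0.109), neither called. The origin subunits Orc1 and Orc6 and the loader Cdc6 were called in 0 of the 3 comparisons with wild-type. Cdc6 read 8.34, 8.25 and 8.37 on the wild-type arrays and 8.68, 8.71 and 9.17 on the LAP arrays, which did not overlap, with a change of 0.53 ± 0.21 (adjusted p = 0.165).

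The MCM group, made up of the ring that unwinds the template and the separate factor Mcm10, held the largest block of calls. With both labels 6 of its 7 genes rose, the exception being Mcm7 at 0.20 ± 0.08 (adjusted p = 0.0814), and the median change was 0.54, or 0.78 as deposited and 0.39 after median centring. Mcm3 read 9.27, 9.20 and 9.29 on the wild-type arrays, 9.72, 10.09 and 9.88 with LAP, 9.93, 9.61 and 10.26 with the knockout label and 10.29, 10.27 and 10.00 with both. All 9 arrays with a label lay above all 3 wild-type arrays. Mcm3 rose by 0.64 ± 0.14 (adjusted p = 0.028) with LAP, by 0.68 ± 0.14 (adjusted p = 0.00551) with the knockout label and by 0.93 ± 0.14 (adjusted p = 0.000279) with both. The rise with LAP was not called as deposited (adjusted p = 0.157) or after median centring (adjusted p = 0.106).

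Mcm2 read 8.47, 8.38 and 8.55 on the wild-type arrays and 9.21, 9.18 and 8.95 with both labels, and rose by 0.65 ± 0.16 (adjusted p = 0.00631). With LAP alone its arrays read 8.73, 9.38 and 9.08, also above wild-type, at a change of 0.60 ± 0.16 that just missed the threshold (adjusted p = 0.0505). Mcm5 and Mcm6, whose promoter letters are printed above, rose with either form of the knockout label. With the knockout label alone, neither was called after median centring (adjusted p = 0.214 and 0.163). Both of those calls ended without wild-type array 1 or 2 or knockout-labelled array 3, and that of Mcm6 also without knockout-labelled array 1. Mcm5 read 10.99, 10.89 and 11.27 in wild-type, 11.40, 11.33 and 11.56 in knockout-labelled and 11.63, 11.67 and 11.46 in LAP knockout-labelled cells. Its rises of 0.38 ± 0.10 (adjusted p = 0.0165) and 0.54 ± 0.10 (adjusted p = 0.000952) were read from a probe set with the x suffix, Affymetrix's mark for probes that may also match other transcripts, and a second probe set without that mark rose by 0.60 ± 0.15 and 0.84 ± 0.15. Mcm6 read 10.70, 10.43 and 10.81 in wild-type, 11.08, 10.90 and 11.39 in knockout-labelled and 11.29, 11.34 and 11.13 in LAP knockout-labelled cells. All arrays of the latter groups lay above the wild-type arrays, though they overlapped each other, and its rises over wild-type were 0.47 ± 0.13 (adjusted p = 0.0288) and 0.61 ± 0.13 (adjusted p = 0.00394). Mcm4 (0.32 ± 0.11, adjusted p = 0.0401) and Mcm10 (0.30 ± 0.10, adjusted p = 0.0429), which is needed to activate the helicase, rose with both labels, and each call ended when any of several arrays was left out.

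CDC45 and the GINS complex, the helicase activators, gave a single call in these 3 comparisons. Gins1 read 8.30, 8.23 and 8.22 on the wild-type arrays, 8.59, 8.68 and 8.38 with LAP, 8.26, 8.19 and 8.89 with the knockout label and 9.11, 8.88 and 8.73 with both. Knockout-labelled arrays 1 and 2 lay at the wild-type level and array 3 with the LAP knockout-labelled arrays. Gins1 rose by 0.66 ± 0.16 (adjusted p = 0.00735) with both labels and differed by 0.20 with the knockout label alone. Gins2 had a change of 0.55 ± 0.22 (adjusted p = 0.0778) with both labels, and Cdc45, Gins3 and Gins4 between 0.01 and 0.18.

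The sliding clamp and its loader stayed near the background. Pcna, the clamp, is bright in every group: its arrays read 12.54, 12.55 and 12.56 in wild-type, 12.59, 12.66 and 12.59 with LAP, 12.49, 12.50 and 12.74 with the knockout label and 12.71, 12.84 and 12.69 with both. The LAP knockout-labelled arrays lay above wild-type by a small step, 0.20 ± 0.07 (adjusted p = 0.0466). That call ended whichever array was left out and turned to -0.12 (adjusted p = 0.36) after median centring. Rfc2, a subunit of the loader, was highest in LAP transgenic cells: it read 8.85, 9.14 and 9.0 in wild-type, 9.55, 9.50 and 9.36 with LAP, 8.83, 8.67 and 8.79 with the knockout label and 8.87, 8.92 and 8.89 with both. The LAP arrays stood above all the others, and Rfc2 rose by 0.47 ± 0.09 (adjusted p = 0.0121) over wild-type. As deposited the change was 0.36 (adjusted p = 0.13) and after median centring 0.38 (adjusted p = 0.0679), and the call ended without wild-type array 1 or 3. The difference between the LAP changes with and without the knockout label was -0.34 ± 0.13 (adjusted p = 0.222), which was not called. Rfc1, Rfc3, Rfc4 and Rfc5 were called in 0 of the 3 comparisons.

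Among polymerases and primase, Prim2, the large primase subunit, separated the groups by the knockout label. It read 8.75, 8.76 and 8.95 on the wild-type arrays, 8.91, 8.94 and 8.90 with LAP, 9.37, 9.27 and 9.52 with the knockout label and 9.47, 9.51 and 9.80 with both. The 6 arrays with a knockout label lay above the 6 without it. Prim2 rose by 0.57 ± 0.10 (adjusted p = 0.00175) and by 0.77 ± 0.10 (adjusted p = 6.73e-05), and had a change of 0.10 with LAP alone. Pole, the catalytic subunit of polymerase epsilon, read 8.08, 7.62 and 8.09 in wild-type and 8.77, 8.57 and 8.29 with both labels, and rose by 0.62 ± 0.19 (adjusted p = 0.0226). The small primase subunit Prim1 had 0.39 ± 0.14 (adjusted p = 0.0551) with both labels, and Pola1 and Pola2 of polymerase alpha were not called.

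The single-strand binding genes Rpa1, Rpa2 and Rpa3 were called in 0 of these comparisons, with changes between 0.07 and 0.21 with both labels. Of the genes that finish the lagging strand, the ligase Lig1 rose by 0.50 ± 0.15 (adjusted p = 0.0233) with both labels, from 9.52, 9.62 and 9.60 in wild-type to 10.19, 10.14 and 9.90. The nuclease Fen1 had 0.27 there and was not called.

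Nucleotide supply held the largest change among the marrow comparisons. Tyms, which makes thymidylate and is the target of fluorouracil, was dim, with log2 signals of 4.93, 4.29 and 4.74 on the wild-type arrays and 5.34, 5.35 and 5.33 with LAP. The mean filter level of the marrow arrays was 4.20, so the wild-type arrays lay close to it. Knockout-labelled arrays read 6.10, 5.19 and 5.81, and LAP knockout-labelled arrays 6.24, 6.22 and 6.01. Wild-type was lowest on all 3 arrays and LAP knockout-labelled cells lay above all others except knockout-labelled array 1. Tyms rose 2.06-fold (1.04 ± 0.24, adjusted p = 0.00815) with the knockout label and 2.83-fold (1.5 ± 0.24, adjusted p = 0.000322) with both, and a second probe set rose by 0.83 ± 0.22 and 1.16 ± 0.22. Fold changes are of log2(signal + 4), which understates dim genes such as this. With LAP alone the change was 0.68 ± 0.24 (adjusted p = 0.125).

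Tk1, the S-phase thymidine kinase, read 8.26, 8.21 and 8.19 in wild-type and 8.91, 8.90 and 8.85 with both labels, and rose by 0.67 ± 0.22 (adjusted p = 0.0357). Its other groups were uneven, with 8.49, 8.18 and 9.11 on the LAP arrays and 8.19, 8.15 and 8.94 on the knockout-labelled arrays, where array 3 stood apart each time, and its call ended whichever array was left out. Rrm1, the large subunit of ribonucleotide reductase, rose by 0.51 ± 0.16 (adjusted p = 0.024) with both labels. Its partner Rrm2 had 0.30 ± 0.11 (adjusted p = 0.0578), and Dut, which keeps uracil out of DNA, had 0.21.

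Both measured genes that restore chromatin behind the fork rose with the knockout label and with both labels. Chaf1b, the middle subunit of CAF-1, read 7.48, 7.19 and 7.5 in wild-type and 7.52, 7.34 and 7.53 with LAP, against 8.61, 7.93 and 8.45 with the knockout label and 8.34, 8.02 and 8.02 with both. Arrays with and without a knockout label did not overlap. Chaf1b rose by 0.94 ± 0.16 (adjusted p = 0.00151) and by 0.74 ± 0.16 (adjusted p = 0.00385), and differed by 0.07 with LAP alone. Uhrf1, which guides maintenance methylation to new DNA, read 10.21, 10.00 and 10.14 in wild-type, 10.82, 10.33 and 11.02 with the knockout label and 10.91, 11.03 and 10.61 with both. It rose by 0.60 ± 0.16 (adjusted p = 0.0232) and by 0.73 ± 0.16 (adjusted p = 0.00416), while LAP alone gave 0.56 ± 0.16 (adjusted p = 0.0781). The rise with the knockout label alone was not called after median centring (adjusted p = 0.122). Its call also ended without wild-type array 2 or 3 or knockout-labelled array 1 or 3.

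**Figure D3:**
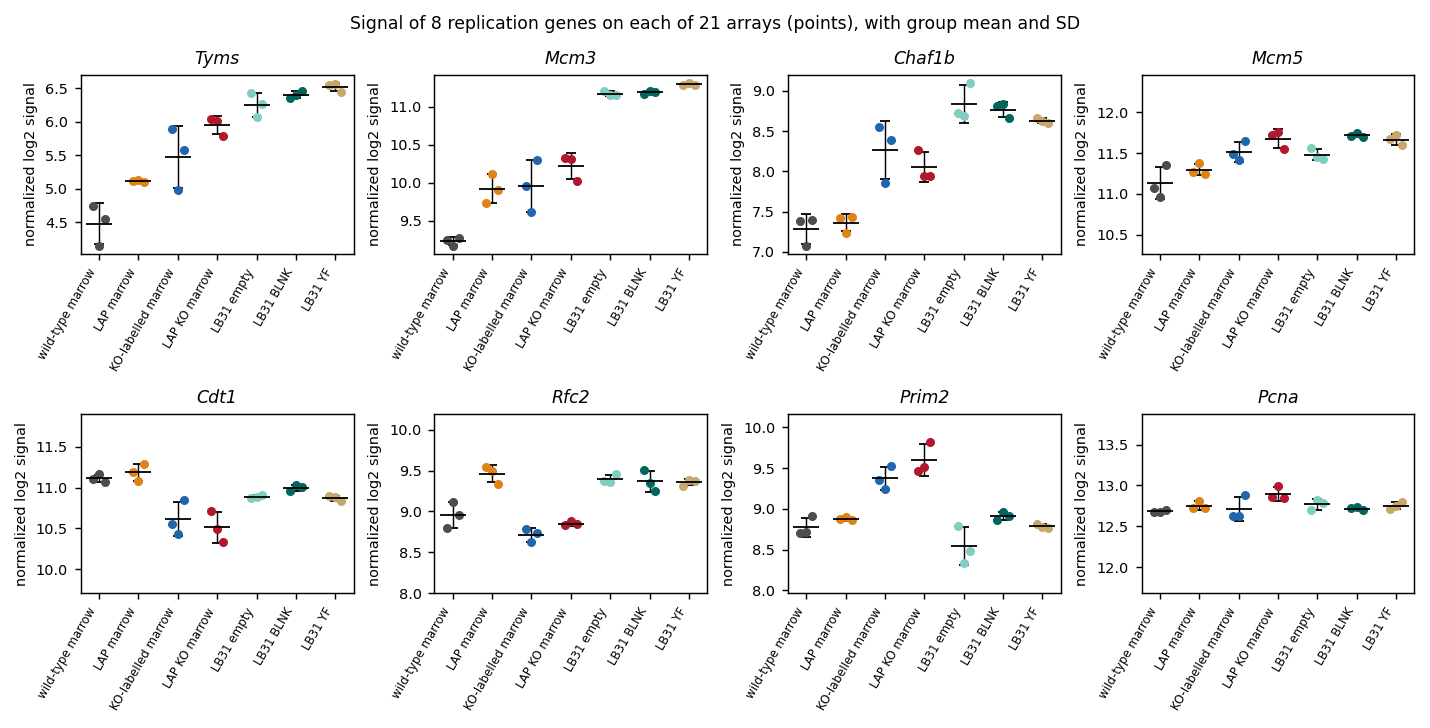
Normalized log2 signal (vertical axes, a scale of its own for each gene) of Tyms, Mcm3, Chaf1b, Mcm5, Cdt1, Rfc2, Prim2 and Pcna on each of the 21 arrays normalized together, with the mean and SD of each group of 3. Chaf1b and Prim2 stand higher and Cdt1 lower in both knockout-labelled marrow groups than in wild-type and LAP marrow, and Prim2 is lower in LB31 than in those groups.

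Within knockout-labelled cells the question is what LAP added. No member was called between LAP knockout-labelled and knockout-labelled marrow by limma, where 3.31% of all genes were called higher and 4.35% lower (7.66% in all). At an unadjusted p under 0.05, 5 members were higher and 0 lower (Gins1, Rfc5, Rrm2, Rpa1 and Pcna), where 10.6% of all genes were higher. The change was positive for 35 of 39 genes, with a median of 0.19 against 0.03 over all genes, and Gins1 was at the top with 0.47 ± 0.16 (adjusted p = 0.112). Mcm3 had 0.25 ± 0.14 and Pcna 0.17 ± 0.07. The count rests on knockout-labelled array 3: without it, 10 members were called higher and 0 lower, beside 5.21% of all genes called higher. The difference between the LAP change with and without the knockout label was called for 0 members, against 0.487% of all genes higher and 1.24% lower (1.73% in all), with a median of -0.02. At an unadjusted p under 0.05, 0 members were higher and 1 lower, where 7.52% of all genes were higher and 985 of 13347 lower.

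Between LAP knockout-labelled and LAP transgenic marrow, 4 members rose and 2 fell, against 14.5% and 12.5% (27% in all) of all genes. Tyms rose by 0.82 ± 0.24 (adjusted p = 0.0206), Prim2 by 0.68 ± 0.10 (adjusted p = 0.000244), Chaf1b by 0.66 ± 0.16 (adjusted p = 0.00842) and Mcm5 by 0.38 ± 0.10 (adjusted p = 0.0116). Cdt1 fell by 0.64 ± 0.11 (adjusted p = 0.000643) and Rfc2 by 0.57 ± 0.09 (adjusted p = 0.000344). As deposited, where the median of all genes was 0.40, 23 members were called higher and 0 lower, beside 40.9% of all genes called higher. Cdt1 and Rfc2 were not called there, at -0.23 and -0.18. Without LAP knockout-labelled array 2, the 4 became 2.

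Other genes of the pathway, from lists chosen with earlier results of these data known, gave the surroundings. Over all genes, 16.5% rose and 14.7% fell with both labels, 8.37% and 8.69% with the knockout label and 2.1% and 1.87% with LAP. Of 34 further replication and S-phase genes, 7 rose (20.6%) and 3 fell (8.82%) with both labels. Among those that rose were Dscc1, part of an alternative clamp loader (0.86 ± 0.15), Pold2 of polymerase delta (0.48 ± 0.09) and the histone chaperone Asf1b (0.47 ± 0.15), while the catalytic subunit Pold1 fell by 0.45 ± 0.14. With the knockout label alone 2 rose and 2 fell (5.88% each), and with LAP alone 0 rose and Pole4 fell by 0.37 ± 0.09. Of 20 E2F and G1/S regulators, 8 rose and 0 fell with both labels, led by the E2F partner Tfdp1 (0.75 ± 0.11) and Skp2, which marks the inhibitor p27 for destruction (0.73 ± 0.16). With LAP alone E2f1 (0.98 ± 0.20) and E2f2 (0.72 ± 0.12) rose, and with the knockout label alone Tfdp1 (0.57 ± 0.11). E2f1 and E2f2 were lower with both labels than with LAP alone, by 0.62 ± 0.20 and 0.69 ± 0.12. Of 17 mitotic genes, 14 rose and 0 fell with both labels, 3 and 0 with the knockout label and 0 and 0 with LAP, with the kinase Plk1 at 0.95 ± 0.16 with both labels and 0.68 ± 0.16 with the knockout label.

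Markers of B-cell stages moved with the same labels. The summed signal of 11 pro-B and large pre-B genes ran from 15496 to 16425 in wild-type marrow, 14060 to 17685 with LAP, 31525 to 36206 with the knockout label and 35183 to 37499 with both. That of 10 immature and mature B genes ran from 32395 to 35763, 27496 to 28489, 14821 to 18600 and 3112 to 3801 in the same order. With both labels, 6 of the first list rose and 2 fell, and 10 of 10 of the second fell. The 7 megakaryocyte genes rose in 7 of 7 cases with both labels, from 2695 to 2793 in wild-type to between 7281 and 10999. Their part in the changes of the replication genes was not tested.

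In LB31 the comparison of BLNK-labelled with empty-vector cells asks what restoring BLNK does to the line. Replication genes were called by small steps: 7 of 39 (17.9%) were higher and 0 lower, against 7.37% and 8.58% (15.9% in all) of all 13024 genes tested, and the largest change was 1.31-fold. The 7 were Prim2, Rfc4, Mcm5, Rrm2, Tk1, Rfc5 and Cdt1. The median change was 0.08 against -0.01 over all genes. The mean deviation of the module was -0.05, -0.04 and -0.03 on the empty-vector arrays, 0.04, 0.06 and 0.03 on the BLNK-labelled arrays and -0.01, 0.00 and 0.01 on the YF-labelled arrays, 3 groups that did not overlap within a range far narrower than in marrow. That order is of the quantile-normalized values. As deposited, the median change was 0.28 with BLNK and 0.42 with YF, beside 0.11 and 0.32 over all genes. After median centring it was 0.30 and 0.31, beside 0.13 and 0.22.

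Rfc4, a small subunit of the clamp loader, read 10.05, 9.97 and 9.94 with the empty vector, 10.34, 10.28 and 10.36 with BLNK and 10.16, 10.25 and 10.12 with YF. BLNK-labelled arrays were highest and YF-labelled arrays lay between. It rose by 0.34 ± 0.05 (adjusted p = 0.000321) with BLNK, its second probe set by 0.27 ± 0.05, and had 0.19 ± 0.05 (adjusted p = 0.102) with YF. Mcm5 read 11.68, 11.56 and 11.55, then 11.83, 11.87 and 11.82, then 11.80, 11.85 and 11.71 in the same order. It rose by 0.24 ± 0.05 (adjusted p = 0.00245) with BLNK, but its other probe sets had 0.01 ± 0.06 and 0.03 ± 0.20 and were not called. Prim2 read 8.73, 8.25 and 8.41 with the empty vector, 8.80, 8.91 and 8.86 with BLNK and 8.75, 8.72 and 8.71 with YF. Its rise of 0.39 ± 0.10 (adjusted p = 0.013) came with low empty-vector arrays 2 and 3, the call ended without empty-vector array 3 or BLNK-labelled array 2, and the mean of its probe sets turned to -0.10.

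Rrm2 (0.21 ± 0.05, adjusted p = 0.0124), Tk1 (0.19 ± 0.06, adjusted p = 0.0349), Rfc5 (0.18 ± 0.05, adjusted p = 0.031) and Cdt1 (0.12 ± 0.04, adjusted p = 0.0486) completed the list. Cdt1 read 10.95, 10.97 and 11.01 with the empty vector, 11.05, 11.14 and 11.12 with BLNK and 10.98, 10.97 and 10.92 with YF, so the BLNK-labelled arrays lay above all 6 others. Mcm3 and Pcna were not called, at 0.02 ± 0.04 and -0.06 ± 0.04: Mcm3 read 11.33, 11.28 and 11.27 with the empty vector, 11.29, 11.33 and 11.32 with BLNK and 11.40, 11.43 and 11.40 with YF. Pcna read 12.88, 13.02 and 12.97, then 12.90, 12.91 and 12.88, then 12.89, 12.93 and 12.99. The calls depended on the scale between arrays, with 3 higher as deposited (2.75% of all genes), 16 after median centring (11.5%) and 1 with all 21 arrays fitted together (2.54%). Rrm2, Mcm5 and Rfc4 were called under the first and second of these, where the median of all genes moved to 0.11 and 0.13. Left out in turn, BLNK-labelled array 1 gave 4, BLNK-labelled array 2 gave 2 and empty-vector array 3 gave 3, while without empty-vector array 1 it was 6 with 2 lower. Mcm5 and Rfc4 stayed called throughout.

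YF-labelled cells were set against the same empty-vector arrays. No member was called by limma, against 0.123% of all genes higher and 0.2% lower (0.322% in all). At an unadjusted p under 0.05, 10 members were higher and 2 lower, where 6.53% of all genes were higher and 1152 of 13024 lower. The median change was 0.02 against -0.02 over all genes, and Mcm5, at 0.19 ± 0.05 (adjusted p = 0.0851), came nearest to the threshold. The count became 6 higher and 0 lower as deposited, 17 and 0 after median centring, where the median of all genes moved to 0.32 and 0.22, and 6 and 0 without empty-vector array 1. All genes called higher were 4.41%, 10.2% and 4.13% in the same order. Between BLNK-labelled and YF-labelled cells, Gins1 (0.22 ± 0.05, adjusted p = 0.0142) and Cdt1 (0.15 ± 0.04, adjusted p = 0.0351) were higher with BLNK and 0 members lower, against 3.93% and 5.11% (9.04% in all) of all genes. Gins1 read 9.94, 9.86 and 9.92 with BLNK and 9.65, 9.75 and 9.64 with YF, without overlap. The 2 became 0 as deposited or after median centring, where the median of all genes was -0.18 and -0.06, and 0 or 1 whichever array was left out. Of the 7 genes called with BLNK against the empty vector, Cdt1 was thus the only gene also called between BLNK and YF.

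In LB31 the surrounding lists moved in both directions. Beside them, 7.37% of all genes were higher and 8.58% lower with BLNK, and 0.123% and 0.2% with YF. With BLNK, 7 of 34 further replication genes rose and 2 fell, with Mcm8, a helicase of recombination repair (0.47 ± 0.08), and Dscc1 (0.40 ± 0.07) up and the polymerase delta subunit Pold4 (-0.37 ± 0.05) and the methyltransferase Dnmt1 (-0.34 ± 0.07) down. Of 20 E2F and G1/S regulators, 6 rose and 0 fell, with E2f5 at 0.57 ± 0.10 and E2f8, a repressor within the family, at 0.51 ± 0.09. E2f8 also rose with YF (0.47 ± 0.09, adjusted p = 0.0443). Of 17 mitotic genes, 5 rose and 1 fell with BLNK and 0 were called with YF. Summed immature and mature B genes ran from 322 to 344 with the empty vector, 643 to 688 with BLNK and 310 to 398 with YF, and summed pro-B and large pre-B genes from 27221 to 27743, 24069 to 24426 and 26931 to 27242. Their part was not tested.

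The widest contrast for the module was between the line and marrow. Empty-vector LB31 had 28 of 39 genes higher and 2 lower than knockout-labelled marrow, against 29.4% and 29.9% (59.4% in all) of all 14653 genes tested. Both groups carry the Blnk KO label, and they differ at once in leukaemic origin, in culture with interleukin 7, in the vector and in clonality, which cannot be told apart. Over all 21 arrays, the mean deviation of the module ran from -0.57 to -0.03 on the marrow arrays and from 0.33 to 0.43 on the LB31 arrays, without overlap. The median change was 0.67 against 0.06 over all genes. As deposited it was 0.27 with all genes at -0.42, with 16 calls higher and 4 lower, and after median centring 0.92 with all genes at 0.23, with 34 and 1. All genes called higher were then 12.8% and 33.9%.

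All 4 licensing genes rose: Orc1 by 1.25 ± 0.14 (adjusted p = 1.39e-07), Orc6 by 1.21 ± 0.12 (adjusted p = 1.22e-08), Cdc6 by 0.67 ± 0.17 and Cdt1 by 0.28 ± 0.09. As deposited, Cdc6 (0.22, adjusted p = 0.38) and Cdt1 (0.04, adjusted p = 0.83) were not called, and the call of Cdt1 also ended without knockout-labelled array 2. Orc1, the largest origin subunit, read 6.11, 6.22 and 6.5 in knockout-labelled marrow and 7.56, 7.56 and 7.47 in LB31. In the helicase, Mcm2 read 8.78, 8.66 and 9.14 in marrow and 10.57, 10.58 and 10.54 in LB31, a gap wider than the whole spread in marrow, and rose 3.25-fold (1.70 ± 0.13, adjusted p = 1.63e-10). Mcm3 read 9.95, 9.62 and 10.30, then 11.22, 11.16 and 11.15, and rose by 1.22 ± 0.12 (adjusted p = 1.1e-08). Mcm10 rose by 1.28 ± 0.09. Gins1 read 8.19, 8.11 and 8.84, then 9.71, 9.82 and 9.71, and rose by 1.37 ± 0.13 (adjusted p = 1.23e-08).

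Pola2, the regulatory subunit of polymerase alpha, had the largest change of the module in any comparison. It read 7.70, 7.62 and 7.98 in knockout-labelled marrow and 9.63, 9.67 and 9.73 in LB31, and rose 3.76-fold (1.91 ± 0.10, adjusted p = 5.56e-13), with its 2 other probe sets at 2.10 ± 0.44 and 2.40 ± 0.35. Fen1, which removes the flap of each lagging-strand fragment, read 9.53, 9.37 and 10.09, then 11.03, 11.03 and 11.11, and rose by 1.39 ± 0.12 (adjusted p = 1.3e-09). In nucleotide supply, Tk1 rose by 1.32 ± 0.18 (adjusted p = 2.09e-06) and Dut by 1.13 ± 0.09 (adjusted p = 3.75e-10). Tk1 read 8.11, 8.07 and 8.90 in marrow and 9.62, 9.73 and 9.70 in LB31, and Dut read 10.30, 10.30 and 10.65, then 11.59, 11.54 and 11.52. Neither overlapped. The clamp loader subunits Rfc4 (0.95 ± 0.10) and Rfc2 (0.68 ± 0.08), the single-strand binding genes Rpa3 (0.80 ± 0.09) and Rpa2 (0.76 ± 0.12) and Chaf1b (0.57 ± 0.15) rose too. Of these, Rfc2 (0.27), Rpa2 (0.40) and Chaf1b (0.11) were not called as deposited. Of the 28 genes called higher, 16 were called under both other scalings.

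Prim2 went the other way. It read 9.36, 9.24 and 9.52 in knockout-labelled marrow and 8.79, 8.34 and 8.49 in LB31, and fell by 0.83 ± 0.10 (adjusted p = 4.89e-07), while the primase subunit it pairs with, Prim1, rose by 0.98 ± 0.12 (adjusted p = 3.21e-07). A second Prim2 probe set also fell, by 0.38 ± 0.09 (adjusted p = 0.000924). Rrm2 fell by 0.28 ± 0.10 (adjusted p = 0.0167), with arrays that overlapped, 11.94, 11.65 and 12.20 against 11.76, 11.55 and 11.63. Another of its probe sets was called the opposite way, at 0.33 ± 0.12 (adjusted p = 0.0183), and its call ended without knockout-labelled array 3 or empty-vector array 2, which left 1 gene lower. Pcna did not differ beyond its spread, at 12.63, 12.63 and 12.88 against 12.70, 12.83 and 12.78 (0.05 ± 0.06, adjusted p = 0.468).

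Several genes that were not called between LB31 and marrow had other probe sets that were. Mcm5 had -0.04 ± 0.08 on its brightest probe set and 1.48 ± 0.12 and 0.89 ± 0.21 on its others. Mcm7 had -0.01 ± 0.07, against 0.94 ± 0.09, 0.79 ± 0.09 and 0.13 ± 0.08. Uhrf1 had -0.05 ± 0.14 against 1.82 ± 0.15, and Rfc1 -0.03 ± 0.10 against 0.32 ± 0.08 and 2.36 ± 0.21. In these genes the brightest probe set gave the smallest change. Over the module, 42 other probe sets were tested in this comparison. For genes that were called, 23 were called the same way, 8 were not called and 1 was opposite, and 7 were called where the gene was not. In the other comparisons fewer were called: of the other probe sets of called genes, 0 of 6 were called with LAP, 5 of 13 with the knockout label, 3 of 9 between LAP knockout-labelled and LAP cells, 2 of 8 with BLNK and 0 of 2 between BLNK and YF. Neither Mcm3 nor Rfc2 thus had a second probe set called with LAP, where those of Mcm3 had changes of 0.49 to 0.51. With both labels against wild-type marrow, 10 of 17 other probe sets of called genes were called the same way, 0 the opposite way, and 6 were called where the gene was not, among them those of Mcm7 (0.42 ± 0.11 and 0.34 ± 0.11) and Orc1 (1.71 ± 0.46).

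**Figure D4:**
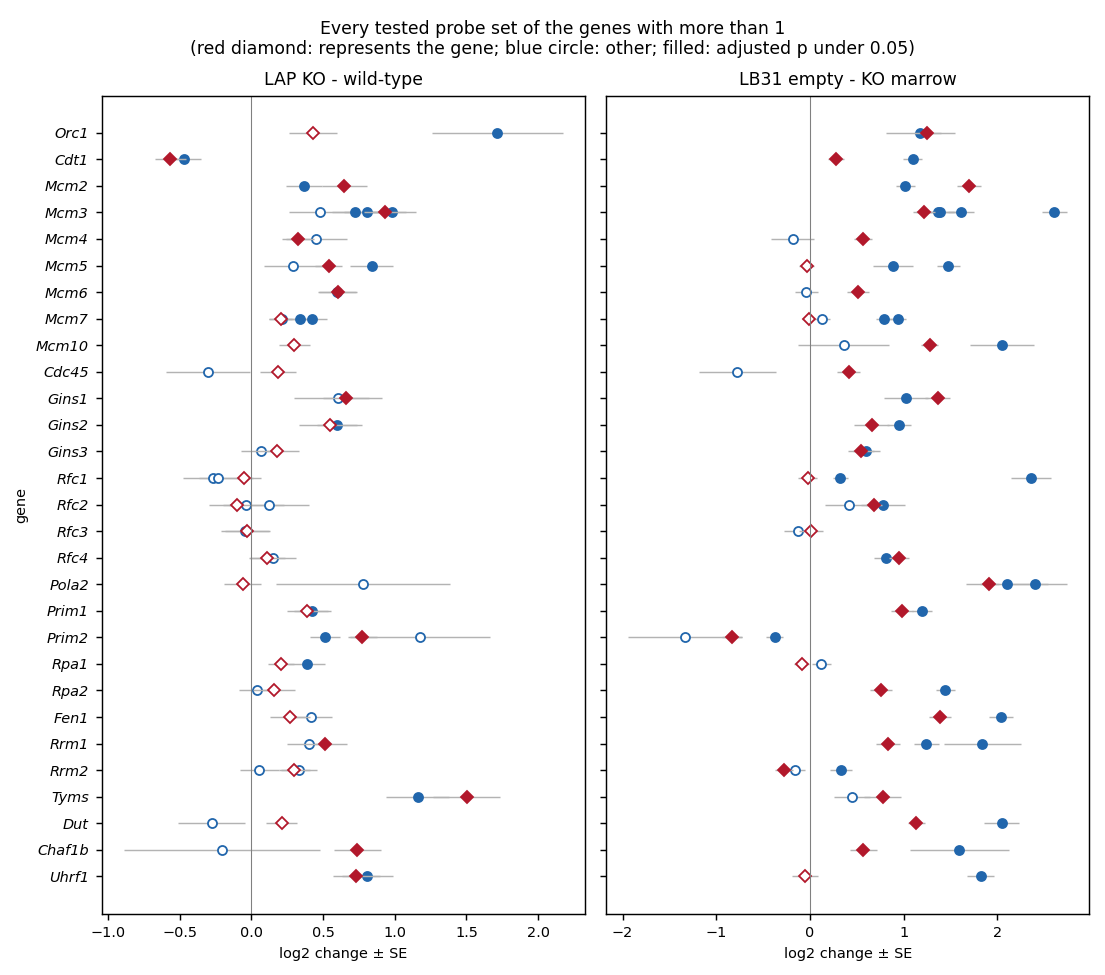
Log2 change ± SE of every tested probe set of the 29 genes with more than 1, for marrow with both labels against wild-type on the left and empty-vector LB31 against knockout-labelled marrow on the right. Red diamonds represent the gene, blue circles are its other probe sets, and filled symbols have an adjusted p under 0.05 over all probe sets of the fit. On the right, the diamonds of Mcm5, Mcm7, Rfc1 and Uhrf1 lie at 0 with filled circles to their right.

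The lists around the module showed where the line and marrow did not move together. Of all genes, 29.4% were higher and 29.9% lower in LB31. Of 34 further replication genes 19 were higher and 4 lower in LB31, led by Pold2 (1.81 ± 0.07) and Mcm8 (1.76 ± 0.12), and of 20 E2F and G1/S regulators 12 were higher and 4 lower, with E2f4 (2.11 ± 0.26) and E2f1 (1.75 ± 0.18) up and the E2F partner Tfdp2 (-1.76 ± 0.16) and the retinoblastoma gene Rb1 (-1.45 ± 0.09) down. Of 17 mitotic genes, 6 were higher and 5 lower, with Plk1 at 1.00 ± 0.13 and the proliferation marker Mki67 at -0.68 ± 0.09. Summed signals of other lineages differed in both directions: 11 neutrophil genes summed to between 107 and 125, against 16193 to 35634 in knockout-labelled marrow, and 10 erythroid genes to between 410 and 435, against 3316 to 9368. The 7 plasmacytoid dendritic cell genes summed to between 2431 and 2525 in LB31, against 6356 to 8953, while the 6 plasma cell genes summed to between 9881 and 10159, above the 8119 to 8763 of knockout-labelled marrow. The part of those cells in the marrow levels was not tested.

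Across all 10 comparisons, 5 genes were never called: Gins4, Mcm7, Rfc1, Rfc3 and Rpa1. In marrow 18 genes were called at least once and 21 in none of the 6 comparisons, and within LB31 8 genes were called in any of 3. The share of all genes called at least once was not calculated, so these counts have no background beside them. A single comparison called up to 31.2% of all genes in marrow and up to 15.9% within LB31. Cdt1 was the only gene called lower in marrow by the knockout label and higher in LB31 by the BLNK label, at -0.47 ± 0.11 and 0.12 ± 0.04. Neither call of Cdt1 held as deposited (adjusted p = 0.248 and 0.207), and that in LB31 ended whichever array was left out. Prim2 and Mcm5 were called higher in both comparisons on their brightest probe sets, but in LB31 the mean of probe sets turned Prim2 to -0.10 and the other Mcm5 probe sets had 0.01 and 0.03.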

How the data were processed

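RNA (100 ng per sample) was measured on 21 arrays, 3 in each of 7 groups taken from the labels. The authors deposited MAS5 signal intensity per probe set, on a linear scale, per the submitters' processing notes. Each fit (marrow 12 arrays, LB31 9, all 21) used log2(signal + 4), quantile normalization, a filter that kept probe sets over the 40th percentile of the array on 3 or more arrays, and the brightest probe set with a single symbol as the gene. Changes were tested with limma 3.58.1 in R 4.3.3 (lmFit and eBayes with trend, Benjamini-Hochberg adjustment over all genes of the fit), with a separate fit over probe sets. The calculation was tested on simulated data. By rule, the text names up to 3 members per role group and comparison by size of change, any called against the majority, array values of up to 8 called members per comparison, Mcm3 and Pcna throughout, and up to 4 called genes per comparison list. Further members, such as the remaining helicase genes, Cdc6, Pole and Lig1 with their arrays, other probe sets with the same direction and those of uncalled genes, were added after their values were seen. The members, comparison lists and tests were chosen with earlier results of these data known. Array number limits the precision. The median deposited signal ran from 15.3 to 31.4 over the arrays, so other scalings, as well as left-out arrays, pseudocounts, filters and probe-set rules were tried. A probe set shared by Tyms and a Tyms pseudogene was left out.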

Additional observations from a re-analysis of the deposited data

How the results depend on the processing

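Counts are given as members higher and, where needed, lower. On the values as deposited they were 11 and 0 for knockout-labelled against wild-type, 0 for LAP, 29 and 0 for both labels, 23 and 0 for LAP knockout-labelled against LAP, 3 for BLNK against empty vector, 6 for YF, 0 for BLNK against YF, and, between LB31 and marrow, 16 and 4. After median centring they were 3 and 2, 0, 9, 3 and 2, 16, 17, 0, and 34 and 1 in the same order. All genes called higher were 24.1%, 0.764%, 35.4%, 40.9%, 2.75%, 4.41%, 0.507% and 12.8% as deposited, in that order. The shares after centring were 5.78%, 1.49%, 12.1%, 11.7%, 11.5%, 10.2%, 1.01% and 33.9%. With all 21 arrays in 1 fit the counts of members were 8 and 2, 8, 22, 8 and 2, 1 for BLNK and 0 for BLNK against YF, and 2 for LAP knockout-labelled against knockout-labelled. There 10.2%, 4.16%, 17.2%, 15.6%, 2.54%, 1.23% and 5.47% of all genes were called higher. The mean of probe sets gave 4 and 1 for LAP knockout-labelled against LAP, 1 for BLNK against YF and 29 and 1 between LB31 and marrow, and no filter gave 1 for BLNK against YF. Leaving out each array in turn gave 4 to 8 higher and 1 lower for the knockout label, 0 to 3 for LAP, 9 to 15 and 1 for both labels, 0 to 10 for LAP knockout-labelled against knockout-labelled, 2 to 6 and 2 against LAP, 2 to 7 and 0 to 2 for BLNK, 0 to 6 for YF, 0 to 1 for BLNK against YF, and, between LB31 and marrow, 26 to 30 and 1 to 2. The difference between LAP changes gave 0 throughout.

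Replicate numbers did not pair the arrays throughout: same-numbered deviations correlated between -0.10 and 0.27 in marrow (2 of 18 pairs over 0.1) and between -0.04 and 0.02 in LB31. Those 2 pairs were both of LAP with knockout-labelled marrow, array 1 (0.12) and array 3 (0.27). With the replicate block, 13 members were higher with both labels, 5 with BLNK and 1 for BLNK against YF, and 384 of 390 results for single members kept their call.

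Some single changes turned sign. With both labels Pcna was -0.12 after median centring. Between BLNK and empty vector, the mean of probe sets gave Prim2 -0.10 and Mcm4 0.32. Between LB31 and marrow, the values as deposited gave Cdc45 -0.10, Gins3 -0.075 and Rfc3 -0.43. Median centring gave Mcm5 0.44, Mcm7 0.55, Rpa1 0.39 and Rrm2 0.23, and the mean of probe sets gave Cdc45 -0.18, Mcm5 0.77, Mcm7 0.46, Rfc1 0.89 and Uhrf1 0.88. The cause was not tested. A pseudocount of 1 changed no call of a member. Groups of 3 arrays limit what small changes can be called.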
